A study of Mus musculus with 8 samples.

Results

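The transcription factors described here pattern the somite, the block of paraxial mesoderm beside the neural tube that gives rise to vertebrae, ribs, skeletal muscle and dermis. They were chosen by name, with earlier results of these data known, 9 genes in all, from 24675 named genes on the array. The sclerotome factors were Pax1, Pax9, Nkx3-2 and Uncx, the dermomyotome factors were Pax3 and Pax7, and Meox1, Meox2 and Tcf15 act across the whole somite. All 9 had 1 row each in the deposited table. Expression was measured with Affymetrix mouse Gene 2.0 ST arrays in C57Bl/6 embryos at embryonic day 12.5, and the labels name no genetic change or treatment in either group. The ventral group was tissue lying under the dorsal aorta, and the dorsal group was tissue lying between the aortic roof and the notochord. Each group had 4 arrays, labelled as biological replicates 1 to 4, and tissue pairs were taken by laser from cryosections of the same embryos. The labels do not say whether a replicate number stands for a single embryo or several.

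The somite divides in response to signals from its neighbours. Sonic hedgehog from the notochord and floor plate induces the sclerotome on the side facing them, where Pax1 and Pax9 are switched on and the cells migrate round the notochord to form vertebral bodies and discs. The part that stays under the surface ectoderm becomes the dermomyotome, in which Pax3 and Pax7 mark the muscle progenitors. The tissue above the aorta thus borders on sclerotome derivatives, while the tissue under the aorta borders on visceral mesenchyme and the coelomic lining.

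Values are log2 RMA intensities, in which a difference of 1 is a doubling, and every difference is ventral minus dorsal. A level can be read against the median of all rows on its array, which lay between 3.59 and 3.65 on the 8 arrays. Differences were tested with limma over the 12416 genes that lay above that median on at least 4 arrays, with the replicate number as a block. Of the 9 factors, 7 passed that filter and 2, Pax3 and Pax7, did not. Arrays correlated across the tested genes at r = 0.907 to 0.948 within ventral tissue and 0.907 to 0.957 within dorsal tissue. Between tissues r was 0.907 to 0.936; these correlations run across genes, which are not independent. With 4 arrays a tissue, the precision of each value below is limited.

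Some arrays stood apart in the markers of other cell types. The mean of 18 spinal cord and neural progenitor markers was 3.71 to 4.36 on the ventral arrays, 5.08 on dorsal replicate 1 and 3.69 to 3.88 on the other dorsal arrays, so dorsal replicate 1 was the highest. The mean of the red cell and fetal liver list was high on the number 4 arrays, at 8.65 in ventral and 9.98 in dorsal tissue, against 6.57 to 6.91 on the remaining arrays. Its members did not rise alike. On ventral replicate 4 the liver gene Afp was at 9.69, against 3.12 to 3.43 on the other ventral arrays. Of the globins there, Hbb-y was at 11.89, against 11.66 to 12.12, Hba-x at 11.84, against 11.15 to 11.54, and Hbb-bh1 at 10.57, against 8.81 to 9.58. Skeletal muscle markers were at 4.14 to 4.65 in ventral tissue and 4.15 to 5.41 in dorsal tissue. The mean of 10 visceral mesenchyme markers was 5.14 to 6.17 in ventral and 4.55 to 4.80 in dorsal tissue. Of the 10, 3 (Tcf21, Hlx and Gata6) were higher on every ventral than on every dorsal array, and 7 overlapped. The share of all genes that were higher in this way was not counted. At an unadjusted limma p under 0.05, 5 of the 10 were higher in ventral tissue, as were 507 of the 12416 genes tested. The ventral arrays alone would have brought Tcf21 past the filter. Endothelial markers were at 4.79 to 5.28 in ventral and 4.20 to 5.47 in dorsal tissue. The mean of 11 notochord and floor plate genes, of which 8 passed the filter and several, such as the keratins, are made by many epithelia, was 4.51 to 4.91 in ventral and 4.59 to 5.26 in dorsal tissue. Its member Noto lay under the array median on all 8 arrays, at 3.02 to 3.43 in ventral and 3.02 to 3.25 in dorsal tissue. Whether the samples held notochord was not tested.

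All 4 sclerotome factors were lower in ventral tissue in every replicate number, whereas the factors of the whole somite showed no common direction. The 2 dermomyotome factors were also lower in every replicate number. Both were near or under the array median in both tissues, apart from Pax3 on 1 dorsal array. In the blocked fit limma called 0 of the 7 tested factors at an adjusted p under 0.05, on a background of 0.0% of all genes tested. At an unadjusted p under 0.05 limma had 1026 genes in either direction (8.26%) and 519 lower in ventral tissue, which is 4.18% of all genes tested. The 4 sclerotome factors were among those 519, Pax1 as a gene that its dorsal arrays alone would have brought past the filter, and none of the 3 factors of the whole somite was. In bulk tissue, fewer cells of a type and less RNA per cell cannot be told apart.

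**Figure D1:**
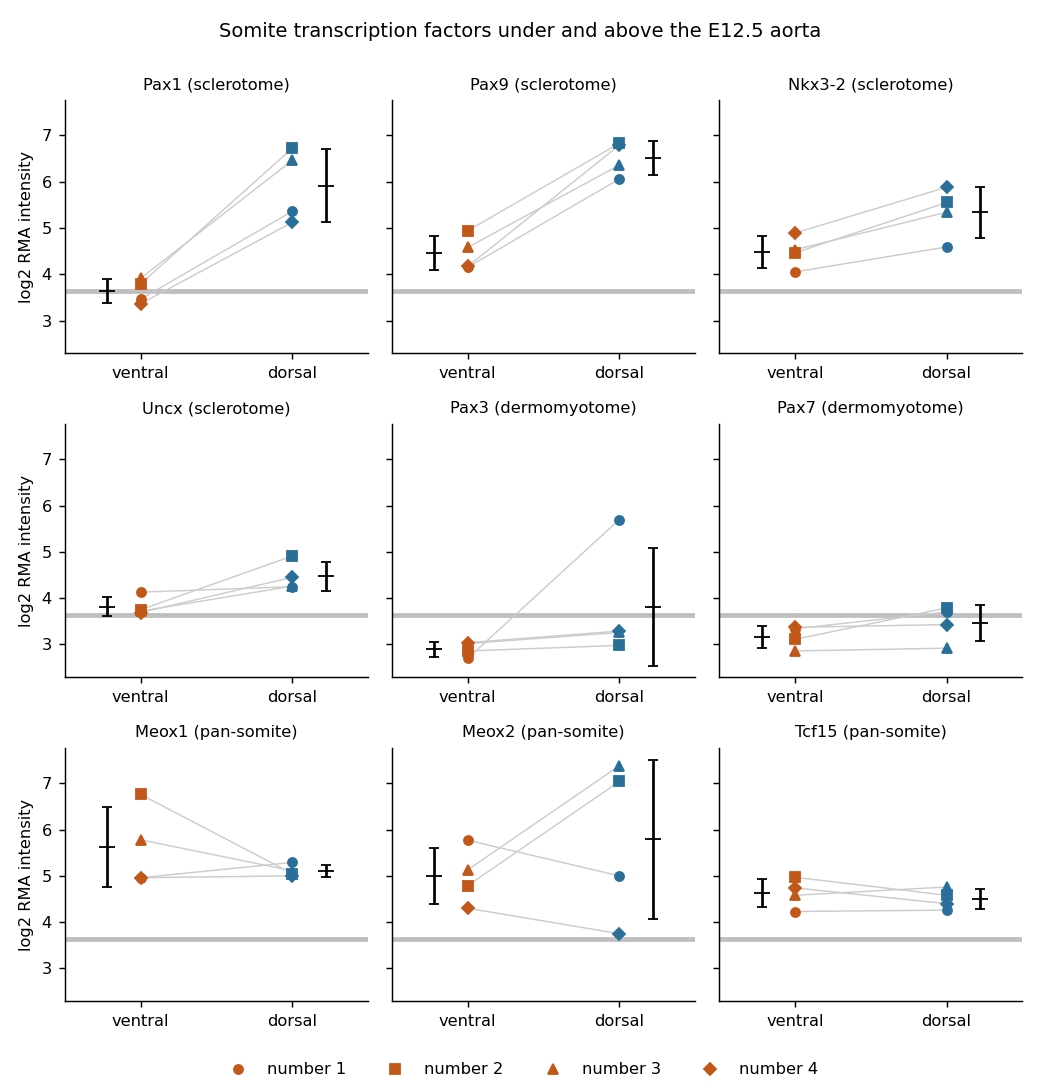
Level of each of the 9 factors (log2 RMA intensity, vertical axis) in ventral (left, orange) and dorsal tissue (right, blue); marker shapes are replicate numbers 1 to 4, grey lines join arrays of the same number, black bars are mean ± SD (n = 4) and the grey band is the range of the array medians, 3.59 to 3.65. Pax1, Pax9 and Uncx do not overlap between the tissues, Pax3 is high on dorsal replicate 1 alone, and Meox2 spans 3.75 to 7.38 within dorsal tissue.

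Pax1 and Pax9 encode closely related paired-box proteins that, in mice, act together in forming vertebral bodies and intervertebral discs. Pax1 was at 3.46, 3.79, 3.91 and 3.36 in ventral replicates 1 to 4, against 5.36, 6.72, 6.46 and 5.12 in dorsal replicates 1 to 4. Every ventral array was below every dorsal array. Of the ventral values, 2 lay above their array's median and 2 below it, so Pax1 in ventral tissue was close to the array median, a range in which background limits the size of a difference. Pax9 was at 4.15, 4.94, 4.58 and 4.17 in ventral tissue, against 6.06, 6.83, 6.36 and 6.79 in dorsal tissue. Again no ventral array reached the lowest dorsal one, and unlike Pax1 all 4 ventral values lay above the array medians.

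The means of Pax1 were 3.63 ± 0.26 in ventral and 5.91 ± 0.79 in dorsal tissue (SD, n = 4 each), a difference of -2.28 (SE 0.24). Those of Pax9 were 4.46 ± 0.37 in ventral and 6.51 ± 0.37 in dorsal tissue (SD, n = 4 each), a difference of -2.05 (SE 0.21). On the linear scale that of Pax9 is a 4.14-fold lower level in ventral tissue, and for Pax1 no fold is given because its ventral values lay around the array medians. A difference of -2 or less was seen in 15 of the tested genes, 0.121%. Limma gave both an adjusted p of 0.0717, which missed the threshold. The 4 dorsal arrays alone would have brought Pax1 past the filter, so its p among the tested genes belongs to a gene admitted by the tissue in which it was high. Without the replicate block, limma called Pax9 (adjusted p = 0.0294), as 1 of 4 genes or 0.0322%, and did not call Pax1 (adjusted p = 0.13). In that fit the call of Pax9 held without ventral replicate 1 (adjusted p = 0.0365) or dorsal replicate 1 (0.0252). It was lost without ventral replicate 2, 3 or 4 (0.0513, 0.117 and 0.135) or without dorsal replicate 2, 3 or 4 (0.136, 0.0885 and 0.0563).

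The factors varied differently among the dorsal arrays. Pax1 was more than 1 log2 unit higher in dorsal replicates 2 and 3 than in dorsal replicates 1 and 4, so that its difference ran from -2.93 in number 2 to -1.76 in number 4. Pax9 showed no such split, and its widest difference, -2.61, was in number 4, where Pax1 had its narrowest. Number 4 is also the pair with the high mean of the red cell and fetal liver list, in ventral tissue mostly through liver genes. The part of such cells in these values was not tested. Without replicate number 4 the difference of Pax1 was -2.46 and that of Pax9 was -1.86.

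Nkx3-2 and Uncx, both homeobox genes of the sclerotome, showed smaller differences. Nkx3-2 acts in mice downstream of Pax1 and Pax9 in cartilage formation and is also needed for the spleen, which arises in visceral mesenchyme. It was at 4.05, 4.46, 4.53 and 4.89 in ventral tissue, against 4.59, 5.55, 5.34 and 5.88 in dorsal tissue. The groups overlapped, because dorsal replicate 1 was below ventral replicate 4, but within each replicate number the ventral array was the lower one, by 0.54 to 1.09. Its means were 4.48 ± 0.34 in ventral and 5.34 ± 0.55 in dorsal tissue (SD, n = 4 each). The limma difference was -0.86 (SE 0.18), with an unadjusted p of 0.00195 and an adjusted p of 0.242.

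Uncx marks the posterior part of each somite and is required in mice for vertebral pedicles and proximal ribs. It was at 4.13, 3.75, 3.72 and 3.69 in ventral tissue, against 4.25, 4.91, 4.26 and 4.45 in dorsal tissue. No ventral array reached the lowest dorsal one, although ventral replicate 1 came within 0.12 of its dorsal partner. The limma difference was -0.64 (SE 0.20), with an unadjusted p of 0.0135 and an adjusted p of 0.435. Its ventral values, too, lay just above the array medians. Without replicate number 1 the difference was -0.82, and without number 2 it was -0.47.

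Among the 4 sclerotome factors, the groups did not overlap for 3, Pax1, Pax9 and Uncx, with every ventral array below every dorsal array. This was seen in 295 of all genes tested, 2.38%. Pax1 was among the genes tested through its dorsal arrays alone, so its place beside these shares is no separate support. A lower ventral value in all 4 replicate numbers was seen for all 4 of them and in 1051 of all genes tested, 8.46%. It was also seen for the 2 dermomyotome factors, which were not among the genes tested, with narrowest differences of -0.12 for Pax3 and -0.06 for Pax7. A lower value in every number was thus not particular to the sclerotome factors. The median difference of the 4 sclerotome factors was -1.45, beside 0.00 over all genes tested, whose 5th and 95th percentiles were -0.47 and 0.50. All 4 lay outside that range, on the lower side.

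**Figure D2:**
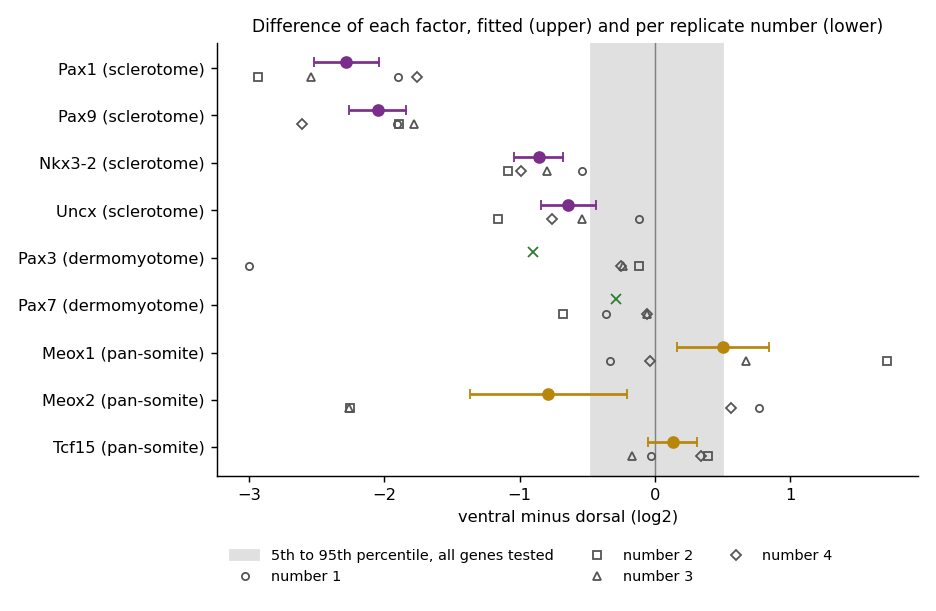
Ventral minus dorsal difference (log2, horizontal axis) of each factor; filled points with bars are the limma difference ± SE, crosses are the mean difference of the 2 factors that were not tested, and open symbols are replicate numbers 1 to 4. The grey band holds the 5th to 95th percentile of all genes tested, -0.47 to 0.50, and the 4 sclerotome factors lie to its left.

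The start regions of these 4 genes are printed because the 4 were lower together in ventral tissue. Each window covers 250 bases before to 50 bases after the transcription start, 5′ to 3′ on the gene's strand, from RefSeq with build GRCm38.p6. Capitals mark every match, on either strand, to 5 motifs: GACCACCCA (bound by Gli factors), TAATTA (homeodomain core), CACTTA (core bound by Nkx factors), CCAAT (the CCAAT box) and TATAAA (the TATA box).
Pax1, chr2:147364744-147365043, plus strand: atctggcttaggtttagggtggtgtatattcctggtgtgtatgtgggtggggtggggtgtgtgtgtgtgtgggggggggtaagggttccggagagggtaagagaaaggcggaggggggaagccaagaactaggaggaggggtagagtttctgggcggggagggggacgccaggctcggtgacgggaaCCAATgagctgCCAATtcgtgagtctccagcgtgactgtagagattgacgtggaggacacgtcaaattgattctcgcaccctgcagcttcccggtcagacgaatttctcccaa
Pax9, chr12:56695221-56695520, plus strand: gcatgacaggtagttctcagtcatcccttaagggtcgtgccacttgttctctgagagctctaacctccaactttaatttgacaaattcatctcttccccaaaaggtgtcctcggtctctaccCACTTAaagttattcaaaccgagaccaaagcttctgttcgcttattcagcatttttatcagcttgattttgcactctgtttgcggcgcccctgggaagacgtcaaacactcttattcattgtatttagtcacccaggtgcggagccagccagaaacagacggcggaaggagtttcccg
Nkx3-2, chr5:41764171-41764470, minus strand: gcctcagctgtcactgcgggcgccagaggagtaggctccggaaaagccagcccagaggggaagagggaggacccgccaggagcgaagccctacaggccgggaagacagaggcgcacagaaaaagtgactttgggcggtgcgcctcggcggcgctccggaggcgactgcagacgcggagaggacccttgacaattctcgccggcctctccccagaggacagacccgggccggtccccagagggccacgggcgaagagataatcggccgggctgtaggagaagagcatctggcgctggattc
Uncx, chr5:139543648-139543947, plus strand: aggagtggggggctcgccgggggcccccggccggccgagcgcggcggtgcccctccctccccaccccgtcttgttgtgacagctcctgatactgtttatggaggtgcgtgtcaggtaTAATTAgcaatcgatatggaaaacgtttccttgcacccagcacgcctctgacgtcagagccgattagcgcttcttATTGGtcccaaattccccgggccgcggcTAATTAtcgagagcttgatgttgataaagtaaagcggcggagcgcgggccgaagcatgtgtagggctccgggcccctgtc

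No motif was shared by all 4 windows. The window of Pax1 held 2 matches to CCAAT and that of Uncx held 1, on the minus strand, a motif present in 37.4% of 32851 promoter windows of the same length. Pax9 held the Nkx core once, 128 bases before the start, as do 9.20% of all windows. Uncx held TAATTA at 2 places, 133 and 30 bases before the start, and 5.29% of all windows hold it at least once. The window of Nkx3-2 held none of the 5 motifs. GACCACCCA was in none of the 4 windows and in 0.253% of all windows. The share of G and C was 57.3% for Pax1, 47.0% for Pax9, 66.7% for Nkx3-2 and 60.7% for Uncx, beside a median of 52.7% over all windows. Matches are letters in a window and not sites, and the array measures RNA, not binding.

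Pax3 and Pax7, a pair of related paired-box factors, mark the dermomyotome and its muscle progenitors, and both are also made in the dorsal neural tube and neural crest. Pax3 was at 2.70, 2.86, 3.02 and 3.04 in ventral tissue, against 5.70, 2.98, 3.26 and 3.29 in dorsal tissue. Dorsal replicate 1 stood 2.41 above the next highest array, and the remaining 7 arrays were all under the array medians. Pax7 was at 3.34, 3.11, 2.86 and 3.37 in ventral tissue, against 3.70, 3.79, 2.92 and 3.43 in dorsal tissue. Only dorsal replicates 1 and 2 exceeded the median of their array, by little. Pax7 was thus not raised beyond the other dorsal arrays on the array where Pax3 stood out.

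The mean difference of Pax3 was -0.90, and -0.20 without replicate number 1. That of Pax7 was -0.29, and -0.27 without replicate number 1. Neither was tested in the main fit. In the limma fit of all 24675 named genes without a filter, their adjusted p-values were 0.865 and 0.835. Levels this close to background leave little room for a lower ventral value to show.

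A gap between dorsal replicate 1 and the next highest array as wide as that of Pax3 was seen in 19 of 24675 named genes, 0.077%, Pax3 included. Among the genes of the marker lists, Fabp7, Sox2 and Zic1 had wider gaps than Pax3. Sox2, a factor of neural progenitors, was at 7.83 on dorsal replicate 1 and between 2.34 and 4.93 on the other 7 arrays. Zic1, a factor of the dorsal neural tube and of somites, was at 6.72 on that array and between 2.81 and 4.03 elsewhere. Fabp7, a fatty acid binding protein of radial glia and Schwann cell precursors, was at 11.18 there and between 3.21 and 8.22 elsewhere. Smaller gaps of over 1 log2 unit belonged to Lhx1 and Pax2, factors of spinal interneurons and of the nephric duct, and to the neural genes Elavl3 and Nes. Of the 18 spinal cord and neural progenitor markers, 9 were at their highest of the 8 arrays on dorsal replicate 1, and 2, Sox3 (3.39) and Dbx2 (3.18), were at their lowest there. The share of all genes highest on that array was not counted. Some of the 9, such as Sox1 (3.46) and Nkx2-2 (3.03), lay under the array median even there. The mean of 8 nephric markers was 4.10 to 4.31 on the ventral arrays, 4.60 on dorsal replicate 1 and 3.93 to 4.01 on the other dorsal arrays. That of 8 neural crest and Schwann precursor markers was 5.23, 4.26, 4.75 and 4.13 on ventral replicates 1 to 4, against 5.07, 4.57, 4.23 and 4.13 on dorsal replicates 1 to 4, so it was highest on ventral replicate 1, where Pax3 was at its lowest. Dorsal replicate 1 was thus high in Pax3, in several, not all, neural genes and in 3 of the 8 nephric markers, Pax2, Pax8 and Lhx1. Their part in the Pax3 value was not tested.

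**Figure D3:**
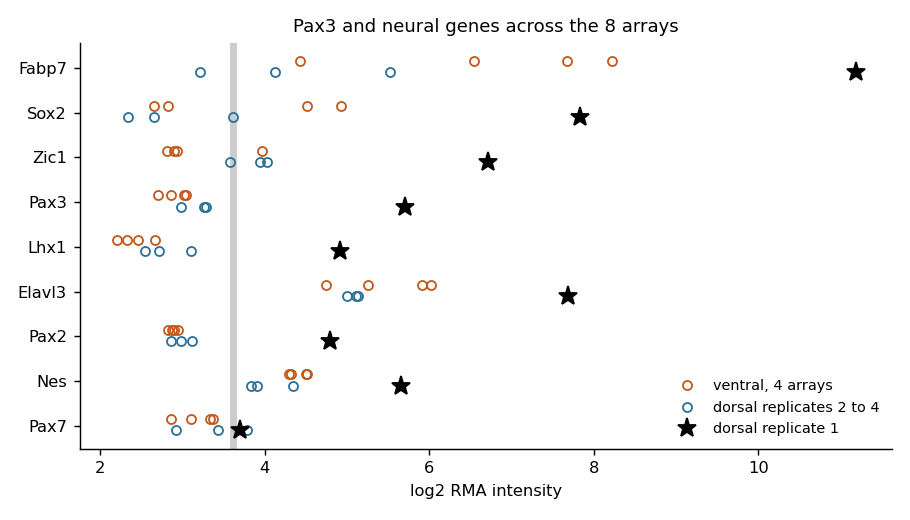
Level (log2 RMA intensity, horizontal axis) of the marker-list genes for which dorsal replicate 1 (star) exceeded every other array by more than 1, with Pax7 for comparison; orange circles are the 4 ventral arrays, blue circles dorsal replicates 2 to 4, and the grey band the array medians. Pax3 sits at 5.70 on dorsal replicate 1 and at 2.70 to 3.29 elsewhere, and Pax7 shows no such gap.

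Set side by side, the median difference was -1.45 for the 4 sclerotome factors and -0.60 for the 2 dermomyotome factors. Within replicate numbers 1 to 4 the sclerotome median was -1.22, -1.52, -1.29 and -1.38, and the dermomyotome median was -1.68, -0.40, -0.15 and -0.15. The sclerotome factors thus had the wider gap in numbers 2, 3 and 4, and the dermomyotome factors in number 1, the number with the high Pax3 value. The gap between both medians was -0.86 over all numbers and -1.29 without replicate number 1. No test was made of it, since the genes were named with results of these data known, and background limits the dermomyotome values.

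The factors of the whole somite went in no common direction. Meox1 and Meox2 are homeobox genes needed together in mice for somite patterning and the axial skeleton, and Meox2 also acts in limb muscle and blood vessels. Meox1 was at 4.96, 6.76, 5.78 and 4.96 in ventral tissue, against 5.29, 5.05, 5.11 and 5.0 in dorsal tissue. The dorsal arrays were close together, while ventral replicates 2 and 3 were higher than all of them and ventral replicates 1 and 4 were lower. The limma difference was 0.50 (SE 0.34, adjusted p = 0.773), and 0.10 without replicate number 2.

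Ventral replicates 2 and 3 were also the higher ventral arrays in the list of syndetome genes, which mark tendon progenitors. The mean of that list was 4.59 and 4.66 on them, against 4.14 and 4.16 on ventral replicates 1 and 4. Its members did not vary alike: Tnc, the matrix glycoprotein tenascin C, was at 5.16, 7.30, 7.32 and 5.99 on ventral replicates 1 to 4, and Scx, the defining factor of tendon progenitors, at 5.86, 7.27, 6.78 and 6.53. The tendon factor Mkx, however, was lowest on ventral replicate 2, at 5.07, 2.98, 5.89 and 3.45, and Egr1 was lowest on ventral replicate 3, at 4.03, 4.65, 3.71 and 3.85. The part of such cells in the Meox1 values was not tested.

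Meox2 was at 5.77, 4.79, 5.13 and 4.30 in ventral tissue, against 5.0, 7.04, 7.38 and 3.75 in dorsal tissue. The dorsal arrays fell into a high pair, replicates 2 and 3, and a lower pair, replicates 1 and 4, so that the SD was 0.61 in ventral and 1.72 in dorsal tissue. Its difference was -2.25 and -2.26 in numbers 2 and 3, but 0.77 and 0.56 in numbers 1 and 4. The limma difference over all numbers was -0.79 (SE 0.58, adjusted p = 0.783). Without replicate number 1 it was -1.32, and without number 2 or number 3 it was -0.31.

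The same pair of dorsal arrays was high in Pax1 and in several other genes. The mean of the 18 other sclerotome genes was 6.82 and 6.66 on dorsal replicates 2 and 3, against 5.97 and 6.02 on dorsal replicates 1 and 4. The endothelial list was at 5.47 and 5.10 on that pair, against 4.79 and 4.20 on dorsal replicates 1 and 4. Hapln1, a link protein of cartilage matrix, was at 9.47 and 8.42 on the pair, against 7.03 and 4.99 on dorsal replicates 1 and 4. Not every member followed this split. On dorsal replicates 1 to 4, Sox6 was at 7.03, 6.73, 6.60 and 5.95 and Tbx18 at 4.62, 4.59, 5.43 and 5.32. The endothelial gene Tie1 was at 3.99, 4.73, 3.91 and 3.35. Meox2 therefore varied with Hapln1 and with the means of the sclerotome and endothelial lists among the dorsal arrays, but not with all their genes. The part of either list in the Meox2 values was not tested.

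Tcf15, or Paraxis, a helix-loop-helix factor needed in mice for the epithelial form of the early somite, was at 4.23, 4.97, 4.58 and 4.74 in ventral tissue, against 4.26, 4.58, 4.76 and 4.40 in dorsal tissue. The tissues overlapped almost fully. The limma difference was 0.13 (SE 0.18, adjusted p = 0.902) and stayed between 0.02 and 0.26 over 18 alternatives.

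Other genes of the somite compartments were described from lists, each as a count beside the 4.18% of all genes that were lower in ventral tissue at an unadjusted p under 0.05. Of 20 other sclerotome genes, 18 were analysed and 17 were tested; 15 were lower in ventral tissue, 10 of them at that p, and 1 was higher at that p. The median difference was -0.83. The 4 with the smallest p were Col2a1, Sox6, Tbx18 and Acan. Sox6, a partner of Sox9 in cartilage, was at 5.27, 4.61, 4.49 and 4.69 in ventral tissue, against 7.03, 6.73, 6.60 and 5.95 in dorsal tissue. Its dorsal replicate 1 was the highest, unlike that of Pax1. Tbx18, a T-box factor of the anterior part of each somite, was at 3.90, 3.57, 4.18 and 3.57 in ventral tissue, against 4.62, 4.59, 5.43 and 5.32 in dorsal tissue. Its difference was -1.19 (SE 0.21, limma adjusted p = 0.201). All 4 dorsal values but only 2 ventral ones lay above the array medians, so dorsal tissue alone would have brought Tbx18 past the filter. The same held for Acan, with 4 dorsal values but only 1 ventral value above the array medians. Both are among the 10 genes counted. None of the genes of these lists passed limma's adjusted threshold in the blocked fit.

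Of 20 other dermomyotome and myogenic genes, 18 were analysed and 11 tested; 7 were lower, 1 of those at an unadjusted p under 0.05, and 4 were higher, with a median of -0.11. That gene was Dmrt2, a dermomyotome factor that in mice acts downstream of Pax3, at 4.35, 4.89, 4.16 and 4.49 in ventral tissue, against 5.14, 5.0, 4.95 and 4.98 in dorsal tissue. Its groups did not overlap, and it differed by -0.55 (SE 0.19, limma adjusted p = 0.513). The muscle determination factor Myod1 was at 4.00 to 4.88 in ventral and 4.34 to 4.82 in dorsal tissue, and Myf5, another such factor, was at 3.90 to 4.31 in ventral and 4.04 to 4.35 in dorsal tissue. Neither separated the tissues. Skeletal muscle markers had 2 of 9 tested genes lower at that p, Tnnc2 (-1.27, SE 0.45) and Mylpf (-1.38, SE 0.55), with a list median of -0.43. Mylpf lay above the array medians on 4 dorsal but only 2 ventral arrays, so dorsal tissue alone would have brought it past the filter.

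Of the segmentation and epithelial somite genes, 11 of 16 were tested, with a median of -0.18, 0 lower and 1 higher at an unadjusted p under 0.05. The higher one was Hey2, a Notch target of arterial endothelium, at 4.90, 5.78, 5.15 and 5.54 in ventral tissue, against 4.59, 4.81, 4.24 and 4.48 in dorsal tissue. In the syndetome list 4 of 7 genes were tested, with a median of 0.25 and 1 gene, Tnc (0.82, SE 0.31), higher at that p. Scx differed by 0.25 (SE 0.31). Neither of these lists thus had a gene that was lower in ventral tissue at that p.

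Hedgehog signalling induces Pax1 and Pax9, and 11 of 13 genes fixed for that pathway were tested, with a median of -0.17. Of the 11, 7 were lower in ventral tissue and 4, Shh, Gas1, Cdon and Boc, were higher. At an unadjusted limma p under 0.05, 2 were lower, the receptor and target Ptch1 and the target Gli1, and 0 were higher. Ptch1 was at 6.00, 6.74, 6.69 and 7.19 in ventral tissue, against 7.98, 8.88, 8.67 and 7.86 in dorsal tissue, and as in Pax1 its higher dorsal arrays were replicates 2 and 3. Gli1 was at 4.37, 5.69, 5.53 and 5.18 in ventral tissue, against 5.39, 5.84, 6.74 and 5.69 in dorsal tissue, so its groups overlapped. The limma differences were -1.69 (SE 0.26, adjusted p = 0.173) for Ptch1 and -0.72 (SE 0.23, adjusted p = 0.448) for Gli1. The ligand Shh, made by the notochord and by endoderm, was at 3.11 to 4.50 in ventral and 3.34 to 3.99 in dorsal tissue, close to the array medians. The BMP antagonist Nog, also made by the notochord, was at 3.94 to 4.41 in ventral and 3.92 to 4.14 in dorsal tissue. Neither differed beyond its spread.

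**Figure D4:**
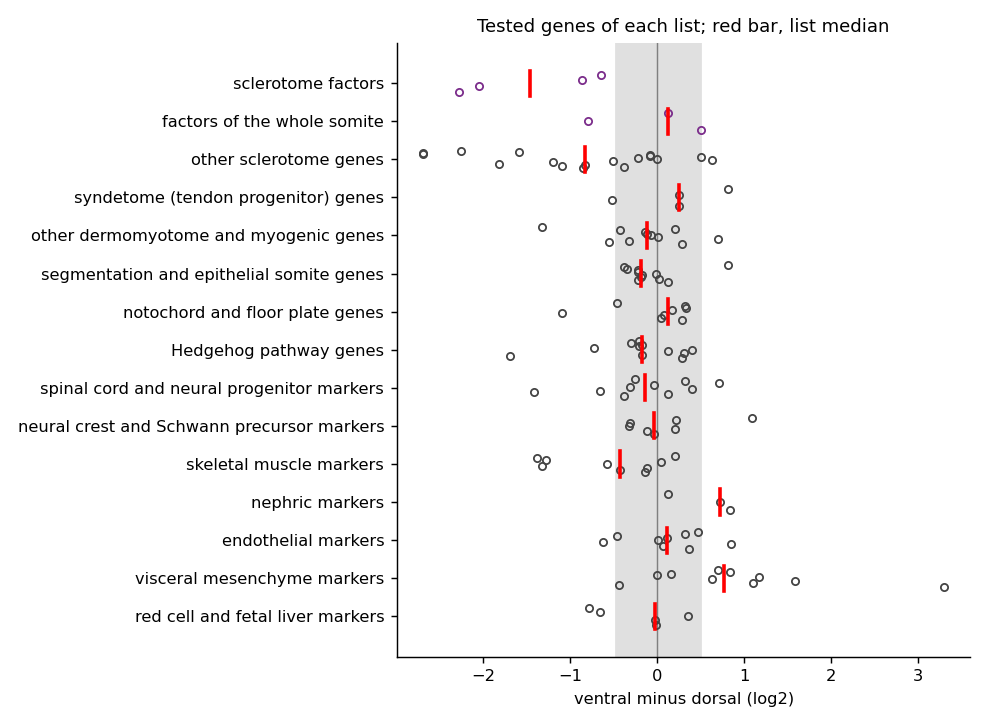
Ventral minus dorsal difference (log2, horizontal axis) of every tested gene in each list; circles are genes, red bars are list medians and the grey band is the 5th to 95th percentile of all genes tested. The sclerotome factors (median -1.45) and the other sclerotome genes (median -0.83) lie mostly to the left, and the visceral mesenchyme markers (median 0.77) to the right.

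For none of the other 5 Pax genes were the tissues apart on all arrays. Of Pax2, Pax4, Pax5, Pax6 and Pax8, Pax4 alone passed the filter, with a difference of 0.10 (SE 0.15). Pax2 was at 2.82 to 2.95 in ventral tissue, against 4.79, 3.12, 2.86 and 2.98 in dorsal replicates 1 to 4, and Pax8 was at 2.45 to 2.95 in ventral tissue, against 3.76, 2.65, 2.54 and 2.68 in dorsal tissue. Both were highest on dorsal replicate 1, like Pax3.

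The genes next to the factors on the chromosome were compared as well, taking the nearest protein-coding gene on each side in RefSeq. Of these 18 neighbours 10 were tested, and their differences ran from -0.80 to 0.28, with 2 at an unadjusted limma p under 0.05, beside 8.26% of all genes tested. Foxa2, a factor of notochord and endoderm that neighbours Pax1 on chromosome 2, differed by 0.05 (SE 0.13), and Nkx2-9 beside Pax9 on chromosome 12 by -0.25 (SE 0.17). Neither of these neighbours thus had a difference near that of the Pax gene beside it, and those on the other side, Nkx2-2 and Slc25a21, did not pass the filter. Rab28, a small GTPase beside Nkx3-2 on chromosome 5, differed by -0.80 (SE 0.15, limma unadjusted p = 0.00103, adjusted p = 0.211), where Nkx3-2 itself differed by -0.86. Zfand2a beside Uncx differed by -0.55 (SE 0.34, limma adjusted p = 0.747), where Uncx differed by -0.64. Csnk2a1 beside Tcf15 differed by 0.28 (SE 0.10, unadjusted p = 0.0264, adjusted p = 0.519).

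Genes with the profile most like each tested factor were found by Pearson correlation over the 8 arrays, as a description. Arrays of a tissue share its level, so any gene that separates the tissues scores high. For factors that do not separate them, the highest r among so many genes over 8 arrays is also high by selection. No r was tested. For Pax1 these were Chad, a cartilage matrix protein (r = 0.986), the semaphorin Sema5a (0.983) and Id4, an inhibitor of helix-loop-helix factors (0.982). For Pax9 the closest was Wwp2, a ubiquitin ligase gene that hosts a microRNA of cartilage (0.976), followed by Ift172 (0.962) and Recql (0.959). For Nkx3-2 they were Kif24, Cit and Clint1 (0.958 to 0.971), and for Uncx Nfatc2, Nfatc1 and Mrrf (0.954 to 0.974). Meox1 was closest to Ptp4a2, Gpr183 and Ltbp1 (0.956 to 0.970), Meox2 to Brwd1, Brd9 and Dcaf7 (0.967 to 0.983), and Tcf15 to Pomp, Emilin1 and Mid1 (0.954 to 0.957). The 4 sclerotome factors had no gene in common among these. The profiles most opposed to Pax1 were those of Epb41l5 (-0.961), Ano10 and Rpl37a (-0.936 each).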

How the data were processed

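The authors deposited log2 values; the submitters' processing notes name Affymetrix Expression Console and RMA, a method of background correction, equalisation of arrays and probe summary. The version of either and the genome build are not given in the sources used here. Per the labels' protocols, picogram amounts of RNA were amplified before labelling, which can add spread for weak genes. Of 25429 rows, 24675 had 1 symbol in the platform table, 0 had several and 754 had none and were not used. Symbols were updated by Entrez number from a RefSeq table of GRCm38.p6.

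Models were fitted in R 4.3.3 with limma 3.58.1 (lmFit and eBayes, trended and robust), with tissue and the replicate number as fixed terms, a two-sided test and Benjamini-Hochberg adjustment over the 12416 genes tested, at a threshold of 0.05. Deviations of same-numbered arrays correlated at r = 0.11, 0.03, 0.02 and 0.12 (-0.13 to 0.10 for different numbers); the block was kept since, per the labels, the tissue pairs share embryos. If a number does not mark an embryo, p-values measure only the spread between these samples.

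The factors and lists were chosen with earlier results of these data known. Genes named are the 9 factors, up to 4 genes with the smallest unadjusted p of a list, marker genes given per array, the closest profiles among protein-coding genes, and Ptch1, Gli1, Shh and Nog. The neighbours, the motifs and the genes high on dorsal replicate 1 were chosen after values were seen. RefSeq promoter windows were given for 6 of the 9 factors. Alternatives changed the block, the filter, eBayes, array weights, the centring of arrays and the arrays included.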

Additional observations from a re-analysis of the deposited data

Results flagged for a closer look

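Of 18 groups of 4 arrays (9 factors in each tissue), 2 held an array whose distance to its nearest neighbour took up more of the group's range than Dixon's 95% critical value allows, where chance flags about 1 in 20. Uncx in ventral tissue was at 4.13 on replicate 1 and between 3.69 and 3.75 on the others (gap over range 0.849), and without replicate number 1 its difference was -0.82. Pax3 in dorsal tissue was at 5.70 on replicate 1 and between 2.98 and 3.29 on the others (gap over range 0.886). On that same dorsal array the means of the spinal cord list (5.08) and of the nephric list (4.60) were at their highest of the 8 arrays, and that of the neural crest list (5.07) was below ventral replicate 1 (5.23), on which Pax3 was at 2.70. The part of such cells in the Pax3 value was not tested.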

How the results depend on the processing

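The sign of the difference was kept by each of the 9 factors under every alternative run. Against 0 genes in the fit with the replicate block, limma called 4 genes with no replicate block and 4 with a random replicate block, of which 1 was a factor (Pax9, adjusted p = 0.0294 and 0.0245) and 1 was another gene of the lists. With a stricter filter, on row means above their 75th percentile, it called 10 genes, including 1 factor (Pax9, 0.0385) and 3 other list genes. Leaving out arrays or replicate numbers gave 0 to 20 genes, 0 to 1 factors and 0 to 4 other list genes, with the 20 in the fit without the block and without ventral replicate 1; that fit gave 8 genes without dorsal replicate 1 and 9 without dorsal replicate 4. Without replicate number 1 the blocked fit called 9 genes, and 0 without number 2, 3 or 4. Pax1 was called in 1 of 18 alternatives, without the block and without dorsal replicate 4 (-2.55, adjusted p = 0.0369), and Pax9 in 5 of 19. Their adjusted p ranged up to 0.417 for both, in the fit without replicate number 3. The gap between sclerotome and dermomyotome medians ranged from -1.29 to -0.59 with 1 number left out. With 1 number left out, Meox1 ranged from 0.10 to 0.78 and Meox2 from -1.32 to -0.31, and neither was called. The mean difference of Pax3, which was not tested there, ranged from -1.16 to -0.20. Pax1, Nkx3-2, Uncx and Tcf15 did not pass the stricter filter, and Pax3 and Pax7 were fitted only without a filter.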
